A study of Mus musculus with 52 samples.

Results

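Genes of the olfactory mucosa and the olfactory bulb were read in messenger RNA libraries from mouse frontal cortex. The set holds 10 genes, Omp, Cnga2, Umodl1, Ebf2, Cyp2a5, Cyp2f2, Ugt2a1, Bpifb4, Sec14l3 and Eomes, of 15692 genes in the deposited count table, and all 10 were found there by symbol. They were chosen by their CPM (counts scaled by the library's total count) in single libraries, so those levels are a description here and carry no test. The 52 libraries came from APP/PS1ΔE9 mice, which carry transgenes that drive amyloid plaque formation, bred onto human APOE4 or human APOE3 in place of the mouse gene. Every group carries the amyloid transgenes, so no group is free of them. APP/E4 denotes homozygous human APOE4 and APP/E3 homozygous human APOE3. HFD denotes a Western high-fat diet with 40% of calories from fat, and ND the normal diet. The APP/E4 libraries comprised 7 HFD females, 5 HFD males, 7 ND females and 6 ND males. The APP/E3 libraries comprised 8 HFD females, 6 HFD males, 7 ND females and 6 ND males. Mean age was 3.5 months when the diets began, the diets lasted 3 months, and behaviour was tested at a mean of 14.7 months, per the labels. The age at tissue collection is not given in the sources used here. No label states outright that each library is a separate mouse, so p-values measure the spread between these libraries. Libraries are named by group and a number in order of deposit.

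Odours are detected in the olfactory mucosa of the nose. Its sensory neurons turn odour binding into current through a cyclic nucleotide-gated channel, and its glands and supporting cells secrete mucus proteins and hold enzymes that clear odorants. Sensory neuron axons cross the bone into the olfactory bulb at the front of the brain and end on mitral and tufted cells, the bulb's projection neurons. Omp encodes olfactory marker protein of mature sensory neurons, Cnga2 a subunit of the transduction channel, Umodl1 a secreted or membrane protein of chemosensory neurons, and Ebf2 a transcription factor of the EBF family. Cyp2a5 and Cyp2f2 encode cytochrome P450 enzymes, Ugt2a1 a glucuronosyltransferase of the mucosa, and Bpifb4 a member of a secreted family of lipid-binding proteins. Sec14l3 encodes a SEC14-like lipid-binding protein. Eomes encodes a T-box transcription factor of mitral and tufted cells.

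A single library had the highest level of most genes of the set. APP/E3 ND male 3 was the highest of 52 libraries for 9 of the 10 genes, all but Eomes, and the 10 genes together took 7702 counts there, or 0.128% of the library. APP/E4 HFD female 4 was the highest for Eomes and lay above each of 48 other libraries for all 10 genes. APP/E3 ND male 5 lay above the same 48 for 9 genes and APP/E3 HFD female 2 for 4, namely Bpifb4, Cyp2a5, Cyp2f2 and Ugt2a1. These 4 libraries were singled out after their values were seen, and each is given by itself below. Levels are CPM on each library's total. In bulk tissue, fewer cells of a type and less RNA per cell cannot be told apart.

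Library totals were 5.34 M to 13.1 M counts, apart from a deeper library of 39.4 M, APP/E3 ND male 5. A gene with 3 counts, taken as the floor of detection, has 0.0762 to 0.561 CPM depending on the library. The floor reflects counting error alone. Libraries fall into 3 classes by the reads they assign to pseudogenes. Class 2 holds 11 libraries, all female, with at most 1.13 CPM of the gene Csl, against at least 11.3 CPM in the other 41. Class 1 holds 33 libraries and class 3 holds 8 males. Markers of the labelled tissue were present in each of the 52 libraries. The sum of 7 markers of cortical excitatory neurons ran from 2789 CPM in APP/E4 HFD female 4, the lowest library, to 5627 CPM in APP/E3 HFD female 2. Camk2a alone made up 2481 CPM and 5190 CPM of these sums, which thus mostly follow that gene.

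Omp had 278 CPM in APP/E3 ND male 3, 129 CPM (977 counts) in APP/E4 HFD female 4 and 52.6 CPM (2071 counts) in APP/E3 ND male 5. It had 3.92 CPM in APP/E3 HFD female 2, and from 0 to 31.3 CPM with a median of 1.44 CPM in the other 48 libraries. The top level of Omp was thus in an ND male of APP/E3 and the next in an HFD female of APP/E4, with no overlap between these 3 libraries and the 48. Next in order came APP/E4 ND male 3 with 31.3 CPM and APP/E3 HFD male 1 with 30.9 CPM. Omp counts reached the floor of 3 in 43 of 52 libraries.

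The other genes of sensory neurons were far lower outside these libraries. Cnga2 had 49.5 CPM in APP/E3 ND male 3, 4.57 CPM in APP/E3 ND male 5 and 3.82 CPM in APP/E4 HFD female 4, against 0 to 1.94 CPM with a median of 0.354 CPM in the other 48. Umodl1 had 72.8 CPM, 7.90 CPM and 3.56 CPM in the same order of libraries, against a median of 0.474 CPM and a highest value of 2.18 CPM in the 48. In APP/E3 HFD female 2 Cnga2 and Umodl1 lay inside the range of the 48. Ebf2 had 13.7 CPM in APP/E3 ND male 3, 2.64 CPM in APP/E4 HFD female 4 and 2.01 CPM in APP/E3 ND male 5, against a highest value of 1.47 CPM in the 48.

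Among genes of glands and supporting cells, Cyp2a5 had 372 CPM (2231 counts) in APP/E3 ND male 3. It had 17.3 CPM in APP/E3 HFD female 2, 15.4 CPM in APP/E3 ND male 5 and 12.5 CPM in APP/E4 HFD female 4, against 0 to 8.70 CPM with a median of 0.624 CPM in the other 48. The first value was 21.5 times the second, so 1 library stands apart even from the other high ones. Bpifb4 had 221 CPM (1326 counts) in APP/E3 ND male 3 and 25.3 CPM (239 counts) in APP/E3 HFD female 2. It had 1.45 CPM in APP/E4 HFD female 4 and 1.35 CPM in APP/E3 ND male 5, close to the highest of the 48 at 1.29 CPM. Bpifb4 was therefore high in 2 libraries, and Omp in a different set of 3 that shares 1 with it. Cyp2f2 had 91.8 CPM, Ugt2a1 76.3 CPM and Sec14l3 105 CPM in APP/E3 ND male 3. Their second highest values were 5.51 CPM, 3.45 CPM and 8.78 CPM, each in APP/E3 ND male 5. Over Cyp2a5, Cyp2f2, Ugt2a1, Bpifb4 and Sec14l3 together, the sum was 866 CPM in APP/E3 ND male 3, 50.2 CPM in APP/E3 HFD female 2, 34.5 CPM in APP/E3 ND male 5 and 26.6 CPM in APP/E4 HFD female 4. Next came APP/E3 HFD male 4 with 16.4 CPM and APP/E3 ND female 6 with 11.5 CPM.

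Eomes followed another order. It had 89.0 CPM (675 counts) in APP/E4 HFD female 4, 15.9 CPM (626 counts) in APP/E3 ND male 5 and 5.61 CPM (53 counts) in APP/E3 HFD female 2. In APP/E3 ND male 3, the library highest for the mucosal genes, it had 3.50 CPM (21 counts), near the median of 2.86 CPM in the other 48, whose values ran from 0 to 33.1 CPM. So the library with the most Omp held an unremarkable Eomes level, and the library with the most Eomes was the second for Omp.

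**Figure D1:**
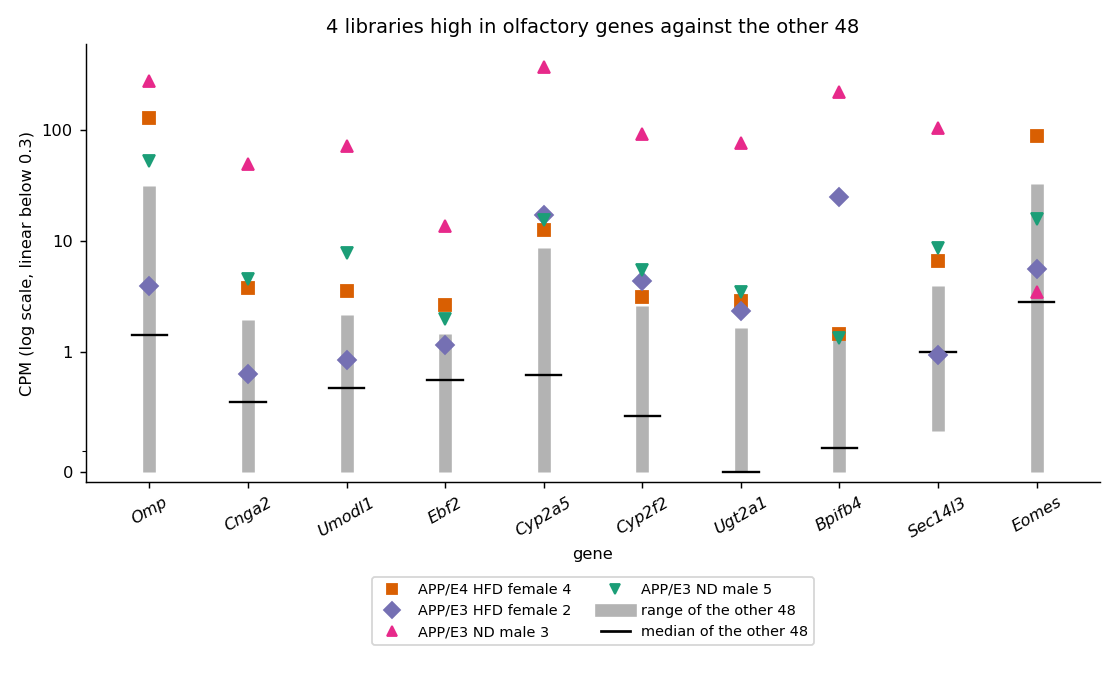
CPM (log scale, linear below 0.3) of the 10 genes in the 4 libraries high in olfactory genes (coloured symbols), with the range (grey bar) and median (black line) of the other 48 libraries. APP/E3 ND male 3 lies above every other library for 9 genes and close to the median for Eomes at 3.50 CPM, where APP/E4 HFD female 4 is highest at 89.0 CPM.

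Levels per kilobase of merged exons allow genes to be set beside each other. In APP/E3 ND male 3 the order was Cyp2a5 at 179 CPM per kb, Omp at 130, Bpifb4 at 70.7, Cyp2f2 at 45.3, Sec14l3 at 37.7, Ugt2a1 at 29.7, Cnga2 at 16.0, Umodl1 at 14.0, Ebf2 at 1.97 and Eomes at 0.842 CPM per kb. In APP/E4 HFD female 4 the order began with Omp at 60.1 and Eomes at 21.4 CPM per kb, followed by Cyp2a5 at 6.04 CPM per kb. A mucosal enzyme thus led in the first of these libraries, and a sensory neuron gene and a bulb gene in the second. APP/E3 ND male 5 had Omp first at 24.5, Cyp2a5 next at 7.43 and Eomes after it at 3.83 CPM per kb. Exon lengths come from the GENCODE annotation of GRCm38, and the counting was done on another build, so these levels are approximate.

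Counts of near-identical genes limit 2 of the members. Of the 50-base stretches of Ugt2a1 transcripts, 97.0% also occur in transcripts of other genes, 68.4% in Ugt2a2 alone. For Cyp2a5 the share was 37.0%, with 28.1% in Cyp2a4. It was 9.0% for Cyp2f2, 4.82% for Ebf2, 2.10% for Eomes and 0% for Omp, Cnga2, Umodl1, Bpifb4 and Sec14l3. How reads that match several genes were counted is not given in the sources used here, and values of Ugt2a1 and Cyp2a5 are uncertain.

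Since 9 members shared their highest library, the stretches ahead of their starts were read for the site of EBF factors, which act at many genes of olfactory sensory neurons, and for the TATA box. Windows of 250 bases before to 50 after the start were found for 8 of the 10 genes in RefSeq (GRCm38.p6) and compared with all 32851 windows of the table, on both strands. The full EBF site, TCCCNNGGGA, was found in the window of Sec14l3 and in 0.904% of all windows. Its core, CCCNNGGG, which the full site contains, was found in Cnga2, Sec14l3 and Umodl1 and in 13.7% of all windows. TATAAA was found in Cyp2a5 and Ugt2a1 and in 13.6% of all windows. The first base of the core lay 66 bases before the start of Cnga2, 28 before that of Sec14l3 and 156 before that of Umodl1, and the first base of TATAAA 29 bases before that of Cyp2a5. The last 200 bases before the start are shown for these 4 genes, plus strand, 5′ to 3′, with the core EBF site or TATAAA in capitals, to show where the matches lie. They cover chrX:71991649-71991848 for Cnga2, chr11:4064653-4064852 for Sec14l3, chr17:30954483-30954682 for Umodl1 and chr7:26835139-26835338 for Cyp2a5. A match is a description of letters and not a bound site.
Cnga2: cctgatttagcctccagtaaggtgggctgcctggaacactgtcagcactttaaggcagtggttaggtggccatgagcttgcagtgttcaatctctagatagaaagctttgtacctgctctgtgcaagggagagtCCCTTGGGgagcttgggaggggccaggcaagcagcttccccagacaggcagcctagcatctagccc
Sec14l3: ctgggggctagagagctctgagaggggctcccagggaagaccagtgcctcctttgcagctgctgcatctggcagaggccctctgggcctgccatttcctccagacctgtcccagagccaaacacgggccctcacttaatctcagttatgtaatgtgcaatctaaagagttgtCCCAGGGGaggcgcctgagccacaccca
Umodl1: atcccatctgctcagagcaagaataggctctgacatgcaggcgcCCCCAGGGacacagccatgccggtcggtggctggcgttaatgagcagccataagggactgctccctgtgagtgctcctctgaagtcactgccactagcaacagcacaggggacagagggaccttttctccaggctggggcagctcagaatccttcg
Cyp2a5: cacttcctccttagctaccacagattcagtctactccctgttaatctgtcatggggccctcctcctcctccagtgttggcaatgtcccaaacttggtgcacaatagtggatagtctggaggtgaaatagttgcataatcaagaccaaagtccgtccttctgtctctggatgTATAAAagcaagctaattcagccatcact

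Ratios within a library set Eomes, Cyp2a5 and Bpifb4 against Omp without regard to depth. Over the 52 libraries Omp had a Pearson r of 0.83 with Eomes and 0.66 with Cyp2a5. A ratio to Omp therefore does not by itself separate mucosal from bulb signal. For each 100 counts of Omp, Eomes had 1.26 counts in APP/E3 ND male 3, 30.2 in APP/E3 ND male 5, 69.1 in APP/E4 HFD female 4 and 143 in APP/E3 HFD female 2. Of the other 48 libraries 21 held at least 20 Omp counts, and there Eomes had between 48.9 and 460 counts for each 100 of Omp, with a median of 106. APP/E3 ND male 3 and APP/E3 ND male 5 thus lay below all 21. As a share of the Omp and Eomes counts together, Eomes made up 1.24% in APP/E3 ND male 3 (exact 95% binomial interval 0.771 to 1.89%), 40.9% in APP/E4 HFD female 4 (38.5 to 43.3%) and 23.2% in APP/E3 ND male 5 (21.6 to 24.9%). These intervals cover counting error only.

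Cyp2a5 had 134 counts for each 100 of Omp in APP/E3 ND male 3, 29.3 in APP/E3 ND male 5, 9.72 in APP/E4 HFD female 4 and 441 in APP/E3 HFD female 2. In the 21 other libraries it had between 0.909 and 151, with a median of 13.6. Bpifb4 had 79.4 counts for each 100 of Omp in APP/E3 ND male 3, 2.56 in APP/E3 ND male 5, 1.13 in APP/E4 HFD female 4 and 646 in APP/E3 HFD female 2, against 0 to 17.9 with a median of 2 in the 21. APP/E4 HFD female 4 therefore held Omp with ratios of Eomes, Cyp2a5 and Bpifb4 inside the range of the 21 libraries, while APP/E3 HFD female 2 held Bpifb4 and Cyp2a5 with few Omp counts.

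**Figure D2:**
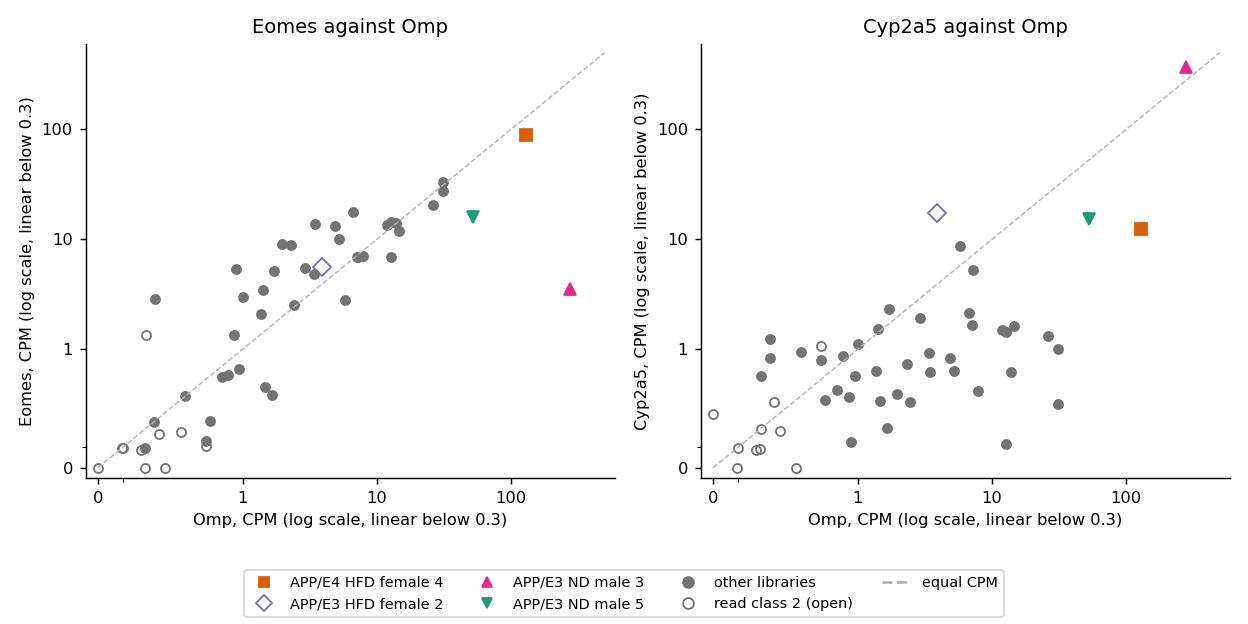
Omp CPM on the horizontal axis against Eomes (left) and Cyp2a5 (right) CPM on the vertical axis, both on a log scale that is linear below 0.3, with 1 symbol per library and open symbols for read class 2. Eomes follows Omp in most libraries, and APP/E3 ND male 3 lies far below the line of equal CPM with 278 CPM of Omp and 3.50 CPM of Eomes.

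Other genes of these tissues were read from lists written with earlier results of these data known. Of 21 genes of sensory neurons and odour transduction, 20 were in the table, and 13 of these were highest in APP/E3 ND male 3. Stoml3, a membrane protein of sensory cilia, had 99.97 CPM there against at most 4.04 CPM in the 48. Rtp1 and Rtp2, which carry odorant receptors to the cell surface, had 27.2 and 18.5 CPM there, against at most 2.11 and 1.01 CPM. Cnga4, a further subunit of the transduction channel, had 26.7 CPM against at most 3.74 CPM, and Adcy3, the adenylyl cyclase of the pathway, 117 CPM against at most 66.9 CPM. Of 6 odorant receptor genes in the table, Olfr536 had 9.50 CPM in APP/E3 ND male 3 against at most 0.318 CPM in the 48, while the other 5 peaked elsewhere.

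Of 21 genes of mucosal glands and supporting cells, 15 were in the table and 12 of these were highest in APP/E3 ND male 3. Bpifb3, of the same secreted family as Bpifb4, had 351 CPM there and 31.6 CPM in APP/E3 HFD female 2, against at most 1.99 CPM in the 48. Scgb1c1, a secretoglobin, had 161 CPM and 19.9 CPM in these libraries, against at most 0.994 CPM. Muc5b, a gel-forming mucin, had 35.5 and 4.24 CPM, against at most 0.285 CPM. These 3 were thus highest in the same 2 libraries as Bpifb4, while in APP/E3 ND male 5 Bpifb3 at 5.56 CPM and Scgb1c1 at 3.53 CPM also lay above the 48. Bpifa1, of the same family, differed, with 2.49 CPM in APP/E3 ND male 5, its highest library, 1.0 CPM in APP/E3 ND male 3 and 0 in APP/E3 HFD female 2. The P450 gene Cyp2g1 had 201 CPM in APP/E3 ND male 3 and 13.3 CPM in APP/E3 ND male 5, against at most 9.09 CPM in the 48, and 5.72 CPM in APP/E3 HFD female 2.

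Most listed bulb genes were highest in the same library as Eomes. Of 15 genes of bulb projection neurons 12 were in the table, and 9 were highest in APP/E4 HFD female 4, among them Cdhr1 at 492.6 CPM, Doc2g at 214 CPM and Tbx21 at 21.1 CPM. In APP/E3 ND male 3 these had 44.5, 11.2 and 1.0 CPM, inside the range of the 48. The list also holds genes of cortical neurons: Tbr1, a transcription factor of both, had 75.9 CPM in APP/E4 HFD female 4, below the lowest of the 48 at 91.2 CPM, and Scnn1a 1.85 CPM against a median of 3.32 CPM. The sum over the 12 genes there was 2397 CPM, inside the range of 1379 to 2420 CPM in the 48. Slc17a7 alone made up 1123 CPM of it, against a median of 1473 CPM and at most 2013 CPM in the 48. The sum therefore says little about the other genes of the list. All 17 bulb interneuron genes were in the table, and 15 were highest in APP/E4 HFD female 4. Calb2 had 287 CPM there and 29.3 CPM in APP/E3 ND male 3, and Th, the enzyme that limits dopamine synthesis, 119 CPM and 9.66 CPM. Of 10 genes of olfactory ensheathing glia, which wrap the sensory axons, 4 were highest in APP/E4 HFD female 4, with Fabp7 at 209 CPM against at most 60.5 CPM in the 48.

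Markers of tissues near the cortex were read beside these values. The sum of 9 choroid plexus genes was 237 CPM in APP/E4 HFD female 4 and 61.3 CPM in APP/E3 ND male 3. In the 48 it ran from 10.6 to 2717 CPM with a median of 31.2 CPM. The top of that range rests on 1 library, APP/E3 HFD female 6, with 2458 CPM of Ttr. Of the 9 genes only Aqp1 was highest in APP/E4 HFD female 4, at 31.9 CPM against at most 17.9 CPM in the 48. The sum of 8 genes of motile ciliated cells was 25 CPM in APP/E3 ND male 3, inside the range of 8.41 to 33.5 CPM in the 48. The sum of 7 meningeal genes was 241 CPM in APP/E4 HFD female 4 and 168 CPM in APP/E3 ND male 3, both inside the range of 34.3 to 383 CPM. The sum of 9 genes of striatal projection neurons had a median of 432 CPM in class 2 and 1637 CPM in the other 41 libraries. Eomes had a median of 0.099 CPM in class 2 and 5.35 CPM in the others, while Sec14l3 had 0.953 and 1.06 CPM. In class 2 without APP/E3 HFD female 2, Omp reached at most 0.532 CPM. The part of dissection and of read class in these levels was not tested.

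Likeness of pattern was read as the correlation of log2 CPM over the 52 libraries, which share their depth and scaling with every gene. Omp went most closely with Eomes among the members (Pearson r 0.83, Spearman rho 0.89). Without the 4 high libraries r was 0.89. In class 1 alone r with Eomes was 0.72, below that of Omp with Cnga2 at 0.80. By rank Eomes stayed above Cnga2 there (rho 0.82 against 0.69), so the order by r differs between all libraries and class 1. Cyp2a5 went most closely with Ugt2a1 (r 0.90, rho 0.64). Its r was 0.84 with Cyp2f2, 0.78 with Bpifb4 and 0.43 with Eomes, but by rank the order differed, with rho 0.50 for Cyp2f2, 0.28 for Bpifb4 and 0.53 for Eomes. Without the 4 high libraries r of Cyp2a5 was 0.65 with Ugt2a1, 0.51 with Cyp2f2, 0.46 with Eomes and 0.22 with Bpifb4, so the order of Bpifb4 over Eomes rests on those libraries. Without the 2 libraries farthest from the median of Cyp2a5, r was 0.79 with Ugt2a1 and 0.49 with Bpifb4.

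Over all genes tested, S100a5, a calcium-binding protein of sensory neurons, was the most like Omp (r 0.97), followed by Clca3a1 (0.89), Stoml3 (0.88), Foxd3 (0.82), Gcnt1 (0.82), Sp8, Th, Ablim3, Doc2g and Sall3. S100a5 was highest in APP/E4 HFD female 4 at 57.2 CPM and had 37.7 CPM in APP/E3 ND male 3. Of these 10 genes, 9 were highest in APP/E4 HFD female 4 and 1 in APP/E3 ND male 3. The 10 genes most like Eomes were Ms4a15 (0.98), Scgn (0.96), Doc2g (0.96), Tbx21 (0.95), Sp8 (0.93), Th, Shisa3, Frmd7, Calb2 and Cdhr1, and all 10 were highest in APP/E4 HFD female 4. For Cyp2a5, a choice made after its values were seen, the 10 began with Cyp2g1 (0.91), Gfy (0.87) and Cbr2 (0.83), and 9 of the 10 were highest in APP/E3 ND male 3. These genes were picked by correlation over the same libraries. A highest library shared with Eomes or Cyp2a5 is thus largely set by that choice and is a description only. Without the 4 high libraries, 7 of the 10 for Omp, 9 for Eomes and 3 for Cyp2a5 were again among the 10. In class 1 alone these counts were 5, 9 and 6, and Sp8, Th, Ablim3, Doc2g and Sall3 were not among the 10 for Omp.

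The ranges of the 8 groups of genotype, diet and sex overlapped in every member. Single high libraries widen these ranges, and the same overlap was not counted over all genes, so it is a description only. By group medians Omp had 6.47 CPM in APP/E4 ND males and 9.29 CPM in APP/E3 HFD males, the highest, and was lowest at 0.705 CPM in APP/E3 ND females, and each group held libraries under 1 CPM. Eomes ran from 7.32 CPM in APP/E3 HFD males to 0.564 CPM in APP/E3 ND females. Cyp2a5 lay between 0.371 CPM in APP/E4 HFD females and 1.3 CPM in APP/E3 HFD females, and Bpifb4 between 0.255 CPM in APP/E4 HFD females and 0 CPM in APP/E4 HFD males.

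**Figure D3:**
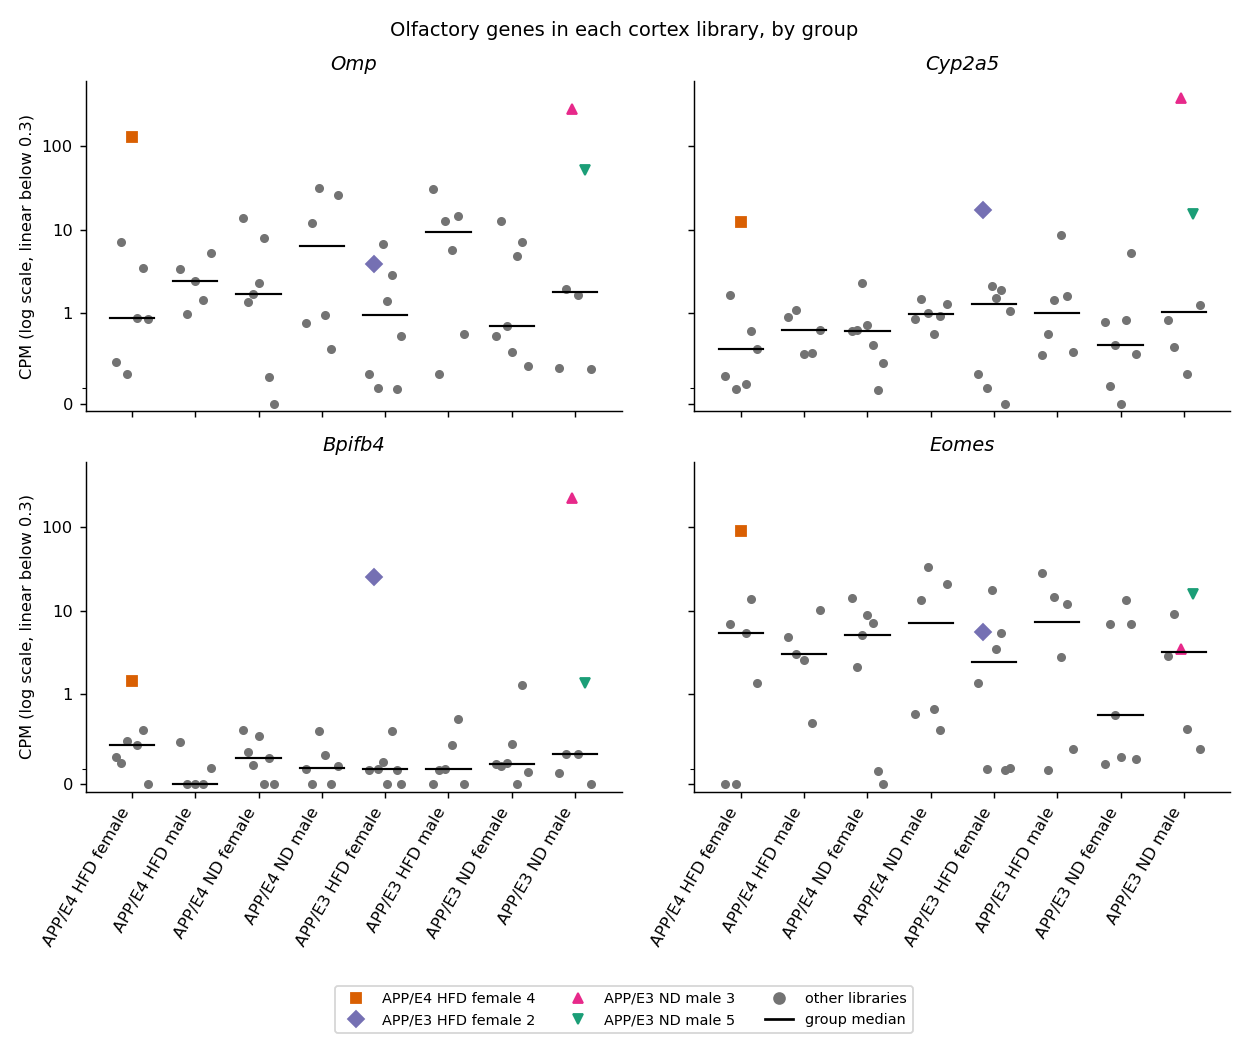
CPM (log scale, linear below 0.3) of Omp, Cyp2a5, Bpifb4 and Eomes in each library, by group of genotype, diet and sex, with 1 symbol per library and a line at the group median. The groups overlap in each gene, and of the 4 coloured libraries APP/E3 ND male 3 reaches 372 CPM for Cyp2a5.

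The contrasts of the design were tested with edgeR's quasi-likelihood test over all 52 libraries and 15195 genes, with Benjamini-Hochberg adjustment and a call at an adjusted p under 0.05. Since these tests use the libraries on which the genes were picked, they are no independent support. All 10 members passed the filter on low counts. Bpifb4 and Ugt2a1 each failed it in 5 of the 52 fits that left out 1 library, APP/E3 ND male 3 among them. Between APP/E4 and APP/E3, 1 of the 10 was called, against 6.79% of all genes. In edgeR 6 members had an unadjusted p under 0.05, against 3235 of all 15195 genes. Cyp2f2 had from 0 to 3.16 CPM with a median of 0.190 CPM in APP/E4 and from 0 to 91.8 CPM with a median of 0.466 CPM in APP/E3, and fell in APP/E4 with a log2 difference of -2.43 ± 0.68 (SE, edgeR adjusted p = 0.0201). The genotypes overlapped, with no count in 7 of 25 APP/E4 libraries and in 1 of 27 APP/E3 libraries. Without APP/E3 ND male 3 the difference was -1.62 (adjusted p = 0.040). Without APP/E3 ND female 6 it was -2.22 (0.0515), and without the 4 high libraries -1.27 (0.0589), so the call ended there. In read class 1 alone it was -2.43 (0.186).

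The other members did not pass between APP/E4 and APP/E3. Cyp2a5 had a log2 difference of -2.18 ± 0.74 (edgeR adjusted p = 0.0640), which was -1.19 without APP/E3 ND male 3 and -0.65 without the 4 high libraries. Bpifb4 had -3.16 ± 1.38 (0.165) and Ugt2a1 -2.50 ± 1.12 (0.177). Umodl1 had -1.52 ± 0.53 (0.0725) and Sec14l3 -1.29 ± 0.46 (0.0794). Omp had -0.19 ± 0.67 (0.911) and turned to 0.33 without APP/E3 ND male 3, and Eomes had 0.55 ± 0.57 (0.626). Over all 52 libraries 9 of the 10 differences were below 0 (median -1.40, against -0.00011 over all genes), as were 5 of the 8 members tested without APP/E3 ND male 3 and 4 of the 7 tested without the 4 high libraries. The first of these counts holds the libraries by which the genes were picked. DESeq2 called 4 members, Cyp2f2, Cyp2a5, Umodl1 and Sec14l3, with adjusted p from 0.00086 to 0.0177, against 8.01% of all genes by DESeq2.

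**Figure D4:**
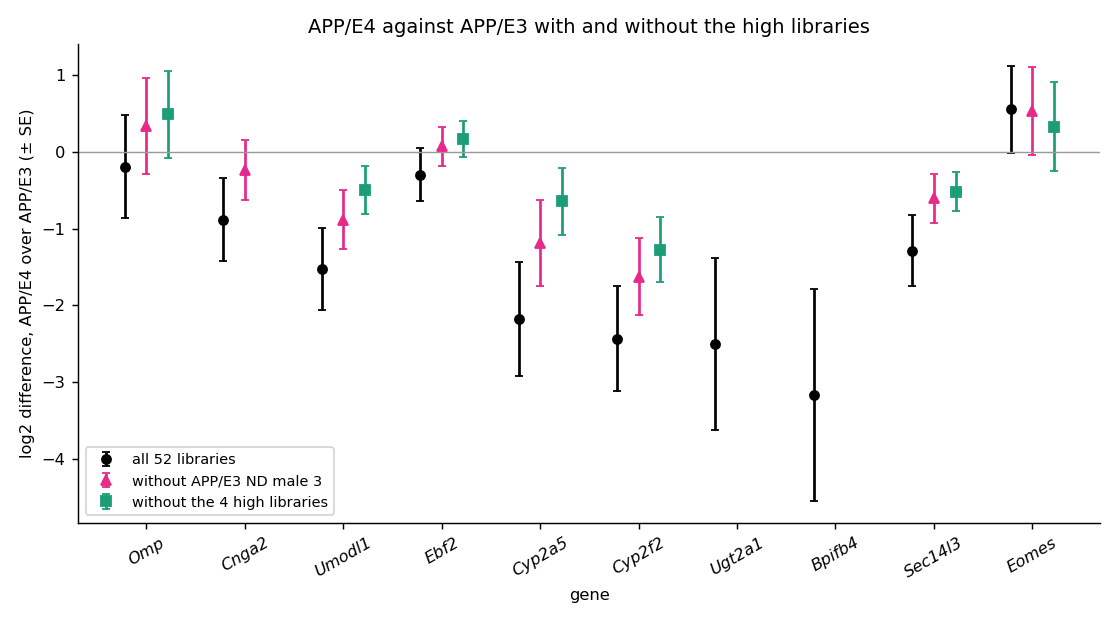
Log2 difference of APP/E4 over APP/E3 (± SE, edgeR) for each member over all 52 libraries, without APP/E3 ND male 3 and without the 4 high libraries. Without these libraries Cyp2a5 lies at -0.65, against -2.18 over all 52, and genes that did not pass the filter there have no symbol.

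Between females and males none of the 10 members was called by edgeR, against 4.42% of all genes, with 1 at an unadjusted p under 0.05, against 18.9% of all genes, and DESeq2 also called 0, against 5.51% of all genes. Omp had from 0 to 129 CPM with a median of 1.36 CPM in females and from 0.191 to 278 CPM with a median of 2.43 CPM in males (log2 difference -1.33 ± 0.67, edgeR adjusted p = 0.270). Without APP/E4 HFD female 4 the difference was -2.15 and passed (adjusted p = 0.0301). All 10 differences were below 0 over the 52 libraries (median -0.78, against 0.0027 over all genes), as were 8 of 10 in class 1 alone and 5 of the 7 tested without the 4 high libraries. The 11 libraries of class 2 are all female, and with read class as a term Omp had -0.82 and Eomes turned to 0.49, against -0.27 without it.

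Between HFD and ND none of the 10 members was called, against 0% of all genes, with 0 members at an unadjusted p under 0.05 in edgeR, against 9.2% of all genes, and 0 called by DESeq2, against 0.0132%. Omp had a median of 1.95 CPM in HFD libraries and 1.68 CPM in ND libraries, and Eomes 3.23 CPM and 3.20 CPM. Their log2 differences were -0.77 ± 0.67 and 0.24 ± 0.57 (edgeR adjusted p = 0.765 and 0.927). The effect of HFD in APP/E4 against that in APP/E3 was called for none of the 10, against 0% of all genes, with 3 members at an unadjusted p under 0.05 in edgeR, against 9.97% of all genes, and 0 called by DESeq2, against 0%. Of the members Ebf2 had the lowest p, with a log2 difference of 2.05 ± 0.67 (edgeR adjusted p = 0.451). Omp had 1.79 ± 1.34, which was -2.57 without the 4 high libraries, of which 1 is APP/E4 on HFD and 2 are APP/E3 on ND.

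Of the genes on the fixed lists 8 were called by edgeR, 3 between APP/E4 and APP/E3 and 5 between females and males. Over all genes the shares called were 6.79% between APP/E4 and APP/E3 and 4.42% between females and males. None was called of 8 genes tested of motile ciliated cells, 9 of striatal neurons, 7 of meninges, 7 of cortical neurons and 5 odorant receptors. Of 19 tested genes of sensory neurons and transduction, Kirrel2, an adhesion protein of sensory axons, rose in APP/E4 (log2 difference 0.34 ± 0.11, edgeR adjusted p = 0.0475) and Ebf4 fell (-0.35 ± 0.11, 0.0483), and Gnb1 fell in females (-0.08 ± 0.02, 0.0358). Of 7 tested gland and supporting cell genes, Ermn, which is also a gene of myelinating oligodendrocytes, rose in APP/E4 (0.35 ± 0.11, 0.0480). Of 12 projection neuron genes and 17 interneuron genes of the bulb, none was called by edgeR in any of the 4 contrasts. Of 9 choroid plexus genes 3 rose in females, against 4.42% of all genes: Ttr, the thyroid hormone carrier (3.35 ± 0.69, edgeR adjusted p = 0.00215), Slc4a5 (2.74 ± 0.74, 0.0225) and Kcnj13 (1.07 ± 0.32, 0.043). All 3 were highest in APP/E3 HFD female 6, where Ttr had 2458 CPM against at most 648 CPM in any other library. Of 10 ensheathing glia genes S100b, which astrocytes also express, rose in females (0.21 ± 0.04, 0.00055). The list medians between APP/E4 and APP/E3 were -0.03 for sensory neuron genes, 0.01 for gland genes, 0.09 for bulb projection neurons and 0.09 for bulb interneurons.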

How the data were processed

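The authors deposited raw read counts per gene for 52 libraries in 1 table. The submitters' processing notes name Subread, featureCounts, limma, edgeR 3.14.0 and mm9. Annotation, strand setting and treatment of shared reads: not given in the sources used here. RNA with an integrity number above the stated minimum went into Illumina mRNA libraries, per the labels. The table's log2 coefficient and p-value columns, which the authors deposited from their own comparison of diets, were not used. Groups come from the labels' genotype, diet and sex. The members and the lists were chosen with earlier results of these data known. Spreadsheet dates in 24 symbols were turned back through gene IDs.

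Tests used edgeR 4.0.16 in R 4.3.3 (TMM scaling, filterByExpr over the 8 groups, robust quasi-likelihood fit with 1 mean per group), which kept 15195 genes and removed 497. Levels are CPM on total counts. Log2 CPM for correlations are TMM-scaled with a prior count of 2. Read classes were rebuilt by clustering 263 pseudogenes, and membership of class 3 depends on which pseudogenes are used. DESeq2 1.42.0, other scaling, no filter, read class terms, class 1 alone and leaving out each library were the alternatives. Leaving out the 4 high libraries was added after the data were seen. The fit was tested on simulated data. Within groups, the lowest chi-square per gene over 146 pairs of libraries was 2.95, so no pair was counted as 1. Named genes are the members, called or detected genes of the lists, and the 10 genes most like Omp and Eomes.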

Additional observations from a re-analysis of the deposited data

Results flagged for a closer look

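Within a group of 5 to 8 libraries, a library was picked out where its gap to the nearest other library was large against the group's whole range (Dixon's 95% critical value). The genes were chosen for their levels in single libraries, so these values describe that choice, and the rate of about 1 in 20 groups that chance picks out among genes not so chosen is no yardstick for them. The libraries picked out are given below.

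APP/E4 HFD female 4 was far above the other libraries of its group in 10 of the 10 genes, Omp at 129, Cnga2 at 3.82, Umodl1 at 3.56, Ebf2 at 2.64, Cyp2a5 at 12.5, Cyp2f2 at 3.16, Ugt2a1 at 2.9, Bpifb4 at 1.45, Sec14l3 at 6.59 and Eomes at 89 CPM.
APP/E3 ND male 3 was far above the other libraries of its group in 9 of the 10 genes, Omp at 278, Cnga2 at 49.5, Umodl1 at 72.8, Ebf2 at 13.7, Cyp2a5 at 372, Cyp2f2 at 91.8, Ugt2a1 at 76.3, Bpifb4 at 221 and Sec14l3 at 105 CPM.
APP/E3 ND female 6 was far above the other libraries of its group in 4 of the 10 genes, Cnga2 at 1.94, Cyp2a5 at 5.29, Cyp2f2 at 2.58 and Bpifb4 at 1.29 CPM.
APP/E3 HFD female 2 was far above the other libraries of its group in 4 of the 10 genes, Cyp2a5 at 17.3, Cyp2f2 at 4.34, Ugt2a1 at 2.33 and Bpifb4 at 25.3 CPM.
APP/E3 HFD male 4 was far above the other libraries of its group in 3 of the 10 genes, Umodl1 at 2.18, Cyp2a5 at 8.7 and Ugt2a1 at 1.66 CPM.
APP/E4 ND female 3 was far above its group in Cyp2a5 at 2.33 CPM.
APP/E4 ND female 4 was picked out in Ugt2a1 at 0.316 CPM, against 0.1225 CPM in the nearest library of its group. This value is 3 counts, at the floor of detection.
APP/E3 HFD female 4 was far above its group in Eomes at 17.7 CPM.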

How the results depend on the processing

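No paired analysis was possible because replicate numbers only name libraries in order of deposit. The number of genes called between APP/E4 and APP/E3 was 405 in read class 1 alone and 1711 with terms for read class and for the sex letter in titles, and of members 4 by DESeq2, 2 with both terms, 0 in class 1 alone and 0 without the 4 high libraries. Between females and males it was 199 with a read class term, 129 in class 1 alone and 32 with both terms. Between diets DESeq2 called 2 genes, and the diet effect in APP/E4 against APP/E3 gave 12 in class 1 alone. Leaving out 1 library at a time gave 792 to 1342 genes between APP/E4 and APP/E3 and 0 to 4 members, 431 to 1061 genes and 0 to 1 members between sexes, and 0 to 2 genes between diets. Cyp2f2 was lost only without APP/E3 ND female 6 among these fits.

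Pearson r of Omp with Cyp2a5 was 0.46 without the 4 high libraries, and of Omp with Eomes 0.72 in class 1 alone. Cyp2a5 had 0.65 with Ugt2a1 and 0.22 with Bpifb4 without the 4, and 0.79 and 0.49 without the 2 libraries farthest from its median.

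Signs of log2 differences turned as follows. Without the 4 high libraries, APP/E4 against APP/E3 gave 0.48 for Omp and 0.16 for Ebf2, females against males 0.25 for Umodl1 and 0.0054 for Ebf2, and HFD against ND 0.21 for Umodl1, 0.084 for Cyp2a5 and -0.036 for Eomes. The diet effect in APP/E4 against APP/E3 gave -2.57 for Omp, -0.028 for Umodl1, -1.28 for Cyp2a5, -0.53 for Cyp2f2 and -0.87 for Sec14l3. In class 1 alone Eomes had -0.15 between APP/E4 and APP/E3, and Bpifb4 0.054 and Eomes 0.58 between sexes. With a read class term Eomes had 0.49 between sexes and Ugt2a1 0.026 between diets, and with both terms 0.58 and 0.034. Leaving out 1 library at a time, the range included 0 between APP/E4 and APP/E3 for Omp (-1.01 to 0.33) and Ebf2 (-0.43 to 0.068), between sexes for Cyp2f2 (-1.20 to 0.043) and Bpifb4 (-0.23 to 0.15), between diets for Cyp2a5 (-1.12 to 0.40), Cyp2f2 (-1.12 to 0.13), Ugt2a1 (-0.29 to 0.17) and Eomes (-0.22 to 0.45), and for the diet effect by genotype for Eomes (-1.21 to 0.14). The cause was not tested. Outside the 4 high libraries most members lie within a few counts of the floor of 3, which limits what these depths can show.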
